A study of Arabidopsis thaliana with 3 samples.

Results

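These results concern the 862 SOB3-GFP regions whose summit lay outside every protein-coding gene, over 250 and up to 1000 bp from the nearest gene edge, on the chromosome arms of Arabidopsis thaliana. Peaks of both ChIP replicates that overlapped by at least 1 bp were joined, which gave 3823 regions with a peak in each replicate. The summit of a region was that of its replicate 1 peak with the highest fold enrichment. Pericentromeric windows were set aside (11.5 to 17.7 Mb on chromosome 1, 1.1 to 7.2 on 2, 10.3 to 17.3 on 3, 1.5 to 6.3 on 4 and 9.0 to 16.0 on 5). This left 2875 regions on the arms, and the 862 were 30.0% of those (Wilson 95% interval 28.3% to 31.7%) and 22.5% of all 3823. The distance rule used position alone, while fold enrichment entered only in the choice of the summit.

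The chromatin came from whole Col-0 plants of 14 days, grown at 22 °C with 16 h of light and 8 h of darkness and taken at ZT4, which is 4 h after lights-on. All plants carried SOB3-GFP driven by the SOB3 promoter in the sob3-4 mutant background. There were 2 precipitations with an antibody against GFP and 1 input library without antibody, of which no file was used here. No precipitation from plants without the fusion is among the samples, and whether the replicates came from separate plantings is not stated in the labels. Read depth is unknown from peak lists. Intervals given here cover counting error only.

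SOB3 is a plant nuclear protein with an AT-hook, a short motif that lies in the minor groove of A+T-rich DNA, and a PPC domain through which members of the AHL family bind each other and other proteins. It restrains the elongation of hypocotyls and petioles, whereas the bHLH factor PIF4 promotes it. In the compact Arabidopsis genome the stretch a short way from a gene edge often holds the binding sites of transcription factors, beyond the core promoter or the end of the transcript. The annotation used here gives no strand, so which of these regions lie before the start of a gene and which behind its end was not analysed, and no genome sequence was used.

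The arms held 11.8 Mb of sequence in this window, which was 13.5% of arm sequence. The density of shared regions there was 72.8 per Mb. It was 94.7 per Mb within 250 bp of a gene, 64.4 per Mb beyond 1000 bp and 10.1 per Mb inside genes. Within the window it was 75.7 per Mb up to 500 bp, 73.4 over 500 and up to 750 bp, and 66.3 over 750 bp. In steps of 50 bp it ranged from 54.3 per Mb (over 750 and up to 800 bp) to 90.8 per Mb (up to 300 bp), with no steady course between. These 3 stretches held 5.28, 3.76 and 2.80 Mb of sequence and 400 (46.4%), 276 and 186 of the 862 regions.

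The lists of the single replicates had different profiles. Replicate 1 peaks had a density of 184 per Mb in the window, against 291 per Mb within 250 bp and 171 per Mb beyond 1000 bp. Replicate 2 peaks had a density of 92.3 per Mb in the window, against 106 per Mb within 250 bp and 80.2 per Mb beyond 1000 bp. The high density beside gene edges was therefore steeper in replicate 1 than in replicate 2. These densities describe 2 lists and were not tested.

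**Figure D1:**
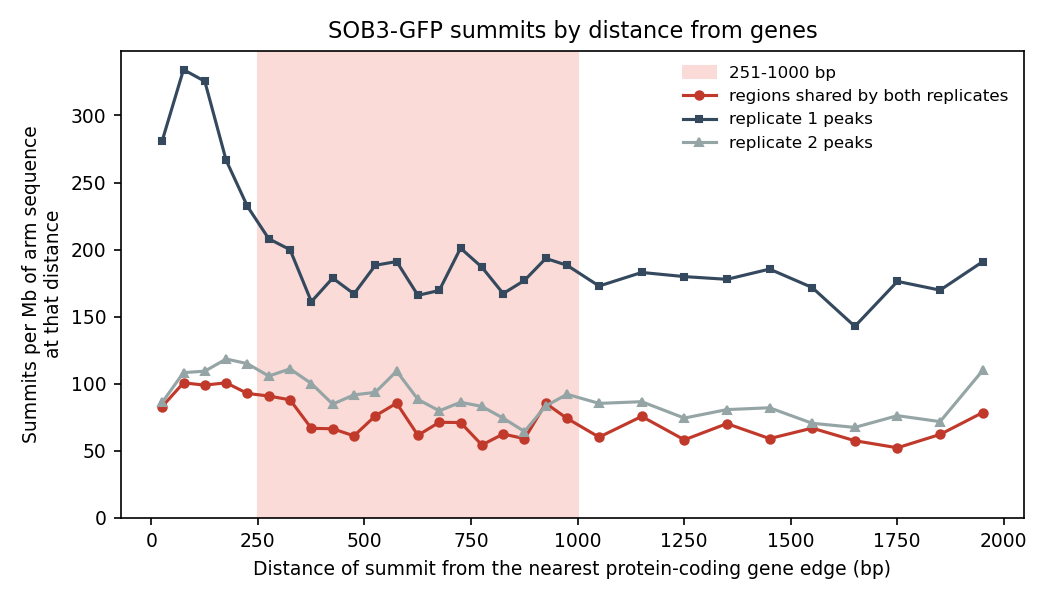
Summits per Mb of arm sequence (y axis) by distance from the nearest protein-coding gene edge in bp (x axis), for regions shared by both replicates and for all peaks of each replicate. In the shaded window shared regions range from 54.3 to 90.8 per Mb, and replicate 1 peaks are densest below 250 bp.

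The strongest of the 862 regions, ranked by the lower of both folds, lay at chr1:29249922-29250669 (TAIR10, as are all coordinates here), 367 bp from AT1G77790. Its fold enrichment, the authors' linear ratio of the summit pileup to the control, was 8.06 in replicate 1 and 4.86 in replicate 2. The next lay at chr3:23340270-23340924, 263 bp from TKL (AT3G63180), a relative of the clock regulator TIC. With 10.5 in replicate 1 it had the highest replicate 1 fold of all 3823 regions, and in replicate 2 it had 4.84. These were the highest replicate 1 folds of the 862 regions.

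NF-YA2 (AT3G05690), a subunit of the CCAAT-box binding complex NF-Y, was next, at chr3:1675680-1676252. Its fold was 4.71 in replicate 1 and 5.52 in replicate 2, the highest replicate 2 value of the 862. A second region lay on the other side of the same gene, 291 bp away, with 6.71 in replicate 1 and 3.22 in replicate 2. The following region was at chr2:965039-965436 near SK16 (AT2G03190), which encodes a SKP1-like protein of ubiquitin ligase complexes, with 4.66 in replicate 1 and 4.98 in replicate 2. Here replicate 2 was the higher one, as at the first NF-YA2 region.

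Next in order were AT4G02140 (5.49 in replicate 1 and 4.63 in replicate 2) and BRG2 (AT1G79110, 5.82 and 4.52), a RING protein gene of the BOI group. DAR3 (AT5G66640), a relative of the organ-size gene DA1, had 5.23 in replicate 1 and 4.50 in replicate 2. AT1G24140 followed with 5.45 and 4.04. EIF2 BETA (AT5G20920), a subunit of translation initiation factor eIF2, had 3.98 in replicate 1 and 4.15 in replicate 2. That region lay in a gap of only 722 bp, 276 bp from EIF2 BETA and 447 bp from the kinase gene TSL.

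MAG1 (AT3G47810), which encodes a retromer subunit of vacuolar protein sorting, had 4.10 in replicate 1 and 3.96 in replicate 2. AT3G54210 had 5.64 and 3.95, and the same region was 782 bp from SCR (AT3G54220), a GRAS factor of the root and shoot endodermis. GLYI4 (AT1G15380), of the glyoxalase family, had 4.37 and 3.94. Over these 12 regions the replicate 1 fold lay between 3.98 and 10.5 and the replicate 2 fold between 3.94 and 5.52. Of the 862 regions, 8 had a fold of at least 4 in both replicates and 117 (13.6%) had at least 3 in both.

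At the other end, the region near HMT-1 (AT3G25900), a homocysteine methyltransferase gene, had the lowest lower fold, with 1.57 in replicate 1 and 2.17 in replicate 2. Across the 862 regions the median fold was 2.86 in replicate 1 (quartiles 2.43 and 3.55) and 2.50 in replicate 2 (quartiles 2.24 and 2.88). The median −log10 of the q-value was 10.4 in replicate 1, while it was 6.12 in replicate 2. Most regions were therefore modest enrichments, far below the leading 12.

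**Figure D2:**
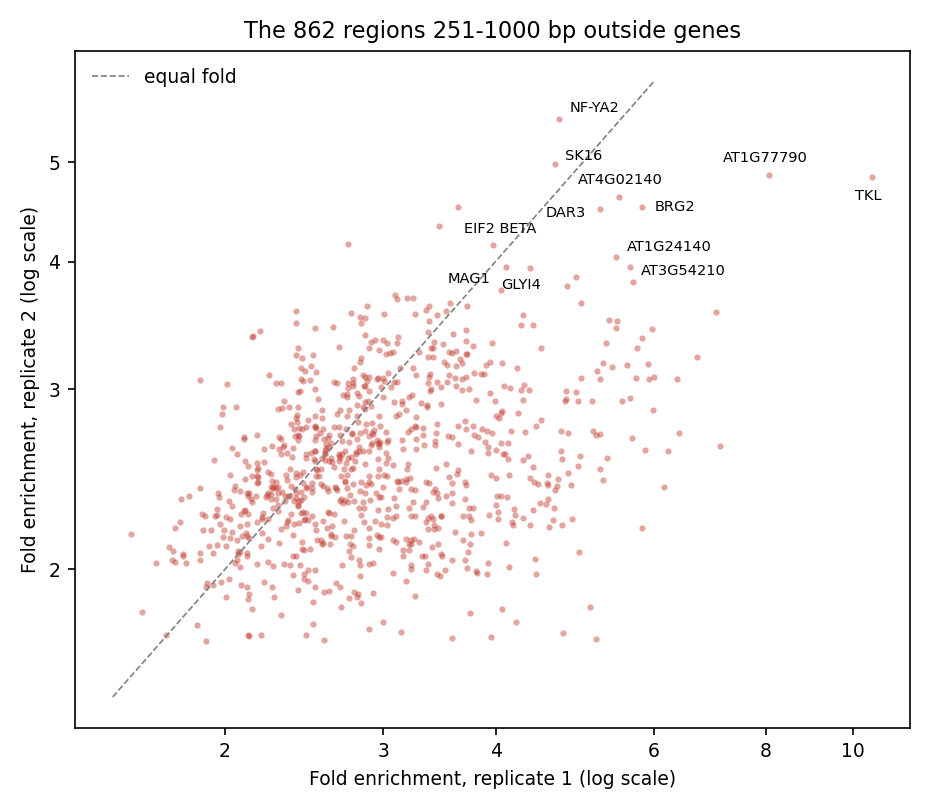
Fold enrichment of each of the 862 regions in replicate 1 (x axis, log scale) and replicate 2 (y axis, log scale), with the 12 regions of highest lower fold named by their nearest gene; the dashed line marks equal fold. Most points lie right of the line: replicate 1 was higher at 66.8% of the regions.

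Replicate 1 had the higher fold at 576 of the 862 regions (66.8%). This share was 67.9% beyond 1000 bp, 77.6% within 250 bp and 76.8% inside genes. Spearman's rho of fold between replicates was 0.34 over the 862 regions, and Pearson's r of log2 fold was 0.37. These are descriptions across regions that share both libraries and whatever control was used. The replicates placed the summit a median of 36 bp apart (quartiles 15 and 83 bp), and within 50 bp at 525 regions (60.9%).

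Distances in the text are those of the replicate 1 summit. The replicate 2 fold is that of the replicate 2 peak with the highest fold in the joined region, whose summit can lie elsewhere. By the replicate 2 summit, 756 of the 862 regions also lay in the window. Of the others, 68 were then within 250 bp of a gene, 32 beyond 1000 bp and 6 inside a gene. Median region width was 459.5 bp (quartiles 352 and 677 bp). Wider peaks had higher folds, with a Spearman's rho of 0.60 in replicate 1 and 0.31 in replicate 2. The joined region reached into the span of a protein-coding gene at 139 regions (16.1%), although its summit was over 250 bp away.

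Median fold enrichment of the 862 regions was close to that elsewhere on the arms. In replicate 1 the median was 2.86 for these regions, 3.15 within 250 bp, 3.12 inside genes and 2.95 beyond 1000 bp. The 862 regions had the lowest median of the 4 classes in both replicates, but in replicate 2 only narrowly (2.501, against 2.553, 2.505 and 2.504). Within the window the replicate 1 median was 2.85, 2.87 and 2.91 over the same 3 stretches, and the replicate 2 median 2.49, 2.47 and 2.52. With 1 group of 2 replicates the differences between classes were not tested.

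**Figure D3:**
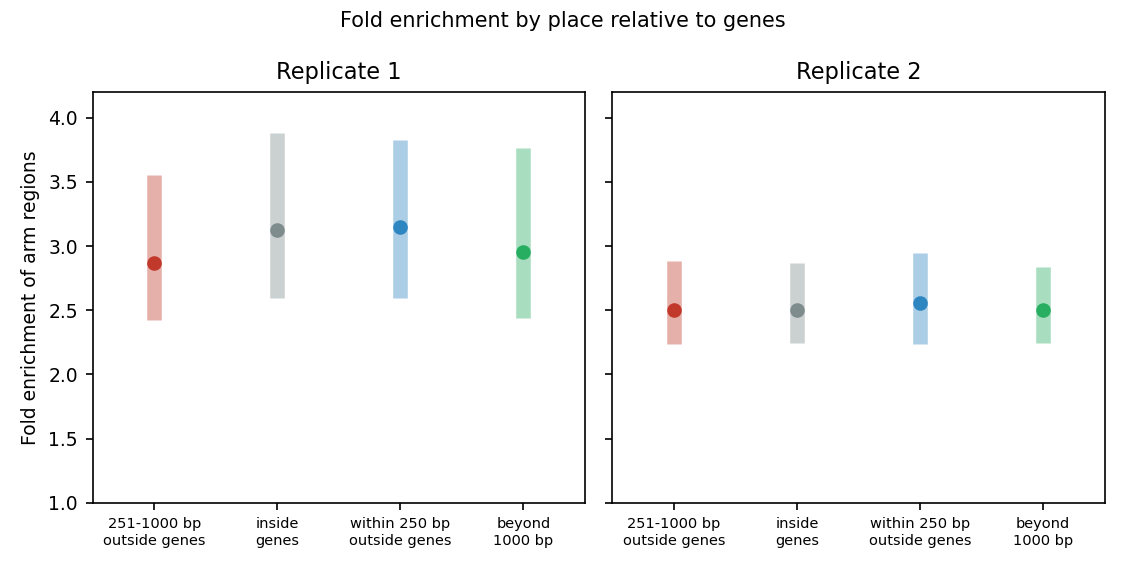
Median fold enrichment (points) with quartiles (bars) of arm regions by place relative to protein-coding genes (x axis), for replicate 1 (left) and replicate 2 (right). The class of the 862 regions has the lowest replicate 1 median, 2.86, while the replicate 2 medians lie between 2.50 and 2.55.

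The limits of the window cut through a continuous range. At 1 bp past the lower limit, just inside, lay 4 regions, those near AT2G18810 (2.39 in replicate 1 and 2.40 in replicate 2), AT2G18840 (3.08 and 3.05), LYK4 (4.87 and 2.24), a LysM receptor-like kinase gene, and AT2G37050 (3.35 and 2.43). At 250 bp, just outside, lay those near AT2G41050 (2.61 and 2.54), AT2G46060 (4.81 and 2.23) and HDG8 (2.14 and 2.83). The farthest member, at 1000 bp from AT1G63490, had 4.19 in replicate 1 and 2.29 in replicate 2. The nearest region just outside, at AT3G15720, had 2.84 and 2.70.

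Whether a peak was found in both replicates was compared between places. Of 2174 replicate 1 peaks in the window on the arms, 869 (40.0%, Wilson 95% interval 37.9% to 42.0%) overlapped a replicate 2 peak. The share was 32.6% within 250 bp (30.7% to 34.5%), 27.7% inside genes (25.9% to 29.7%) and 38.0% beyond 1000 bp (35.7% to 40.2%), and it was 38.5% of all replicate 1 peaks. The intervals of the window and of places beyond 1000 bp overlap. Among replicate 1 peaks in quartile 3 of −log10 q it was 44.4% in the window, against 33.3%, 26.0% and 35.7% for the same classes. In the weakest quartile it was 18.3% in the window, against 12.2%, 12.1% and 21.6%, so places beyond 1000 bp were higher. In quartile 2 the window had 31.7%, against 19.5%, 16.9% and 26.9%, and in the strongest quartile 66.0%, against 63.9%, 58.3% and 61.7%.

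Replicate 2 peaks gave another order. Of 1093 replicate 2 peaks in the window, 906 (82.9%, 80.5% to 85.0%) overlapped a replicate 1 peak, against 86.2% within 250 bp, 85.9% inside genes, 83.8% beyond 1000 bp and 81.9% of all replicate 2 peaks. In its weakest quartile the shares were 69.8% in the window, 77.1% within 250 bp, 81.7% inside genes and 73.8% beyond 1000 bp. In the strongest quartile they lay between 95.6% and 96.6% in all 4 places. Over all quartiles the window had the highest share of the 4 places in replicate 1 and the lowest in replicate 2, where its interval overlaps each of the others. In the weakest quartile of replicate 2 its interval (64.3% to 74.8%) lies below that inside genes (75.8% to 86.4%). That is 1 of many such pairs. The intervals cover counting error over the peaks of 1 library, and differences between places were not tested.

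**Figure D4:**
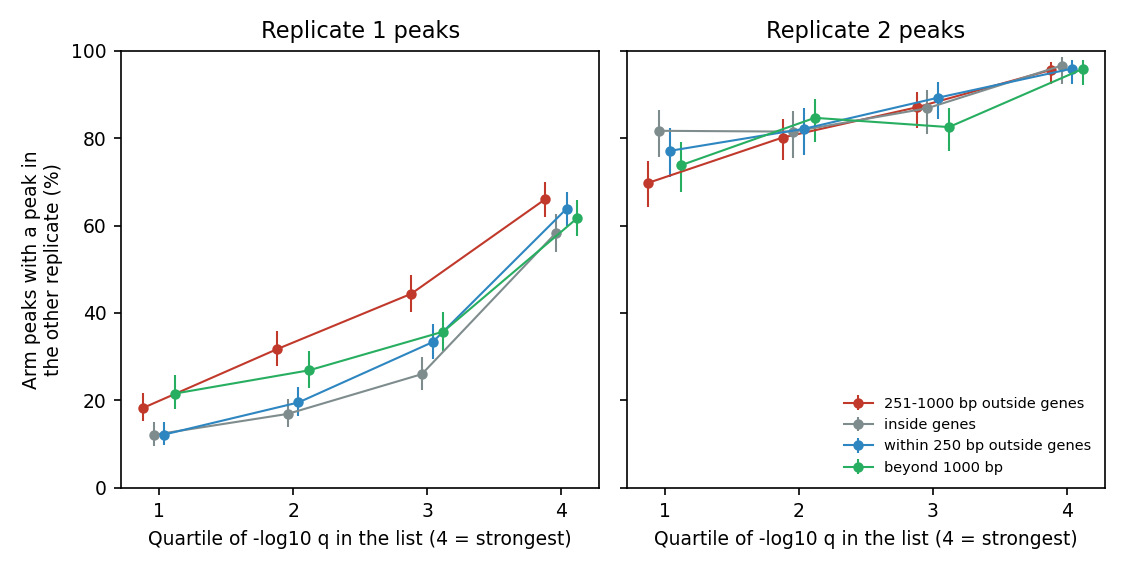
Share of arm peaks that overlap a peak of the other replicate (y axis, %) by quartile of −log10 q within the list (x axis), for replicate 1 peaks (left) and replicate 2 peaks (right); colours are places relative to genes and bars are Wilson 95% intervals. The class of the window is highest in quartile 3 of replicate 1 (44.4%) and lowest in the weakest quartile of replicate 2 (69.8%).

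The regions were spread over many intergenic gaps. Of 12553 gaps between protein-coding genes on the arms that were long enough to hold such a summit (over 500 bp), 833 (6.64%) held at least 1, and 28 of these held 2. The gaps around the 862 regions had a median length of 2318 bp, against 1543 bp for all gaps long enough. At 222 regions (25.8%) a second gene edge was also within 1000 bp, and at 368 (42.7%) the second edge was more than 2000 bp away. Another shared region lay in the same gap at 170 regions (19.7%).

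Gaps over 2000 bp held a region more often than shorter ones, but not more regions per Mb of the window. The share of gaps with a region was 1.97% up to 1000 bp, 6.72% up to 2000 bp, 9.87% up to 4000 bp, 10.7% up to 8000 bp and 9.97% in longer gaps. Over the same gap lengths the density in the window was 85.4, 73.3, 69.8, 73.8 and 68.4 regions per Mb. Within 250 bp of genes it was 84.2, 81.7, 123, 129 and 164 per Mb over these gap lengths. Median fold varied little with gap length, from 2.81 to 2.92 in replicate 1 and from 2.43 to 2.54 in replicate 2.

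By chromosome the density ran from 67.8 per Mb on chromosome 3 (143 regions) to 82.4 per Mb on chromosome 2 (160 regions). Chromosome 1 had 225 regions, chromosome 4 had 143 and chromosome 5 had 191. The median replicate 2 fold lay between 2.46 and 2.55 on all 5.

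Few of the summits lay in genes that do not code for protein. Such genes covered 7.63% of the window, and 21 of the 862 summits (2.44%) lay in one. Of these, 14 were in long non-coding RNA genes, which covered 2.66% of the window. Pseudogenes covered 1.39% and transcribed pseudogenes 1.75% of the window, with 1 summit in each kind. The lncRNA summits included those 482 bp from ARF2 (4.44 in replicate 1 and 2.76 in replicate 2), 853 bp from PAR1 (4.58 and 2.20), a repressor of shade responses, and 989 bp from BT2 (4.74 and 2.21), a BTB-domain scaffold gene. How well reads align to pseudogenes was not tested.

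No summit lay in a microRNA gene, and 5 lay within 1000 bp of one. MicroRNA genes covered only 0.0969% of the window, so a count of 0 is no result by itself. The share of the window within 1000 bp of one was not computed, so the 5 cannot be set beside it. The region at chr4:10577907-10578514 was 366 bp from MIR168a, whose product acts on AGO1 mRNA, with 2.79 in replicate 1 and 2.55 in replicate 2. The region at chr3:4359399-4359789 was 379 bp from MIR169a, whose product acts on mRNAs of NF-YA subunits, with 2.89 and 2.99.

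As nearest protein-coding genes the 862 regions had 849 genes, which is 3.09% of the 27444 annotated on the nuclear chromosomes. Of these, 836 had 1 region and 13 had 2. Counting also second edges within 1000 bp, 1066 genes lay within reach of a region. Of the 849 genes 34 (4.00%) also had an arm region within 250 bp, against 2.68% of all protein-coding genes. Also, 29 (3.42%) held one, against 2.00%, and 63 (7.42%) were nearest to one beyond 1000 bp, against 2.26%. These were 4.62% of the 736 genes with a region within 250 bp, 5.27% of the 550 that held one and 10.2% of the 620 with one beyond 1000 bp. The shares of all genes make no allowance for gap length. A gene can be nearest to a region beyond 1000 bp only beside a long gap, and the gaps around the 862 regions were longer than most (median 2318 bp, against 1543 bp). Whether regions gather at the same genes was not tested.

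The 13 genes with 2 regions included CBF1 (AT4G25490), a cold-induced AP2 factor that sets off freezing tolerance. One region lay 539 bp away at chr4:13020961-13021887, with 5.38 in replicate 1 and 3.16 in replicate 2. The other lay 574 bp away at chr4:13023285-13024105, with 6.37 in replicate 1 and 3.07 in replicate 2. Another region of this gene cluster was 272 bp from CBF2 (AT4G25470), at 5.22 and 3.07, and DREB1A (CBF3) lies between. All 3 regions were above the median of the 862 in both replicates. The summit 539 bp from CBF1 lay in the non-coding gene AT4G03125. Whether reads were shared among these related neighbours was not tested.

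RLM3 (AT4G16990), a disease resistance gene, had 3.78 in replicate 1 and 3.31 in replicate 2 on one side, and 3.42 and 2.21 on the other. At AT4G02920 both regions lay on the same side, one with 3.70 in replicate 1 and 3.43 in replicate 2, the other with 2.50 and 2.43. With NF-YA2, described above, these genes had the highest lower folds of the 13.

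BRG3 (AT3G12920), a relative of BRG2, and UNE10 were picked after their values were seen. At BRG3 one region had 5.19 in replicate 1 and 3.12 in replicate 2 and lay 940 bp away by its replicate 1 summit. Its replicate 2 summit was shifted by -986 bp and lay inside BRG3, so the 2 folds belong to different spots. The other region had 4.19 in replicate 1 and 2.21 in replicate 2 and lay 944 bp away. UNE10 (AT4G00050), which encodes PIF8, had 2.17 and 2.36 on one side and 2.50 and 2.26 on the other, below the median of the 862 in each replicate.

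Genes were then grouped into 47 lists by symbol or synonym. For each list the share of its genes that were nearest to one of the 862 regions was set beside the 3.09% of all protein-coding genes. Genes of longer gaps have more room in the window, so the density per Mb of the window nearest to the genes is given for each group of lists and for the larger lists, beside the 72.8 per Mb of all genes. Over the 47 lists the share was 104 of 2160 genes (4.81%), at 77.6 per Mb. No list was tested, and counts of 0 to 10 genes carry wide counting error. With replicate 1 peaks alone (without replicate 2) the 862 regions would be 2174 and the 849 genes 2065, and with replicate 2 peaks alone 1093 and 1061.

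Hormone genes came first. Among auxin genes, 10 of 172 (5.81%) had a region, at 76.5 per Mb of their window. AUX1 (AT2G38120), the auxin influx carrier, had 3.50 in replicate 1 and 3.32 in replicate 2 at 387 bp. IAA16 (AT3G04730), an Aux/IAA repressor of auxin response, had 5.75 and 3.30 in the region at chr3:1290863-1292414. Its replicate 1 summit lay at 323 bp, but the replicate 2 summit was shifted by 738 bp, so the 2 folds belong to different spots. Of the response factors ARF2 had the values given above, and ARF6 (AT1G30330), which acts with PIF4 in elongation, had 4.73 and 2.61 at 957 bp.

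YUC2 (AT4G13260), an auxin synthesis gene, had 3.42 in replicate 1 and 2.64 in replicate 2. Of the GH3 genes, which conjugate auxin to amino acids, GH3.4 had 2.80 and 2.90 and DFL1 (GH3.6) had 2.10 and 2.68. Of 80 SAUR genes 3 had a region, namely SAUR59 (AT3G60690, 3.93 and 2.64), SAUR16 (AT4G38860, 4.03 and 2.24) and SAUR21 (AT5G18030, 5.82 and 2.20). SAUR21 lies among related neighbours, and whether reads were shared among them was not tested, so its value is uncertain. None of the 8 PIN genes had one in the window, and in a list of this size that is no result by itself. Of them 2 held one (2.00% of all genes did), 2 had one within 250 bp (2.68%) and 1 beyond 1000 bp (2.26%).

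Of 25 gibberellin genes 3 had a region, at 130 per Mb of their window. ATGA2OX3 (AT2G34555), which inactivates gibberellin, had 3.23 in replicate 1 and 3.69 in replicate 2, and GA20OX1 (AT4G25420), a synthesis gene of stem growth, had 2.44 and 2.09. The receptor gene GID1B (AT3G63010) had 5.65 and 2.94 at 544 bp, in the region at chr3:23291628-23292798. Of 21 brassinosteroid genes 3 had a region, at 188 per Mb. BIN2 (AT4G18710), the kinase that restrains brassinosteroid signalling, had 3.95 and 3.19 at 841 bp. The early-response bHLH genes BEE1 (AT1G18400) and BEE2 (AT4G36540) had 3.55 and 2.46, and 3.23 and 2.02.

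The cytokinin lists had 3 of 50 genes, at 71.2 per Mb. Of 24 cytokinin response regulator genes RR13 (2.74 in replicate 1 and 3.04 in replicate 2), RR21 (2.08 and 2.20) and ARR7 (3.22 and 2.002) had a region. ARR7 is a negative regulator, whereas RR13 and RR21 are of the transcription factor type. None of 7 CKX, 19 IPT and LOG, and 12 ACS genes had one. The ERF, DREB and CBF list had 6 regions, at 120 per Mb, and those at CBF1 and CBF2 lie in the same gene cluster. Among its 56 genes 5 had a region. Besides CBF1 and CBF2 these were, named after their values were seen, CRF10 (AT1G68550, 3.05 and 3.26), ERF4 (2.38 and 2.06) and ERF2 (2.41 and 1.91). At CRF10 the replicate 2 summit was shifted by -324 bp, so the 2 folds belong to different spots.

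The light lists had 4 of 43 genes, at 154 per Mb. PIF4 (AT2G43010) had its region in this window, 336 bp from the gene at chr2:17889200-17889889, with 2.72 in replicate 1 and 2.44 in replicate 2. Both values were just below the medians of the 862 regions. The replicate 2 summit of this PIF4 region was shifted by 347 bp, so the 2 folds belong to different spots. PIL2 (AT3G62090), which encodes PIF6, had 5.18 in replicate 1 and 1.71 in replicate 2. They were 2 of 12 PIF and phytochrome genes matched by symbol or synonym. Of that list 2 genes had a region within 250 bp (2.68% of all genes did). UNE10 (PIF8), with the 2 regions given above, was not matched and stands outside this count. Of 31 B-box genes COL9 (AT3G07650, 4.12 and 2.35) and BBX29 (AT5G54470, 3.61 and 2.17) had one.

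Transcription factor lists held 41 genes of 745 with a region (5.50%), but at 74.4 per Mb of their window, close to the 72.8 of all genes. Their genes had a mean of 776 bp of window each, against 431 bp for all protein-coding genes.

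Homeobox genes had 7 of 77, at 100.1 per Mb. PFS2 (WOX6) had 2.98 in replicate 1 and 2.76 in replicate 2, HAT1 (AT4G17460), an HD-Zip II gene of shade responses, had 4.13 and 2.56, and HB-3 (WOX9) had 2.44 and 2.43. The leaf polarity gene PHB (AT2G34710), chosen after its values were seen, had 3.58 and 2.04. Of 40 LBD genes 4 had a region, at 114 per Mb, among them the nitrogen-responsive repressors LBD39 (3.55 and 3.10) and LBD37 (3.75 and 2.61), and LBD16 (2.26 and 2.30), which acts in lateral root initiation.

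Of 131 MYB genes 6 had a region, at 61.0 per Mb. AS1 (AT2G37630), which represses KNOX genes in leaves, had 3.38 in replicate 1 and 3.10 in replicate 2 at 980 bp. Its replicate 2 summit was shifted by 211 bp, so the 2 folds belong to different spots. MYB96, a regulator of cuticular wax, had 2.86 and 3.08. The anthocyanin regulators MYB113 (2.43 and 2.99) and MYB114 (2.23 and 2.37) are neighbours, and their regions lay in the 1 gap between them. WRKY genes had 4 of 71, at 66.7 per Mb, led by WRKY47 (5.99 and 2.87), WRKY54 (3.37 and 2.43) and WRKY49 (2.25 and 2.48). NAC genes had 4 of 100, at 56.2 per Mb, led by NAC001 (3.02 and 2.60), NAC065 (2.56 and 2.42) and NAC046 (2.37 and 2.41).

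The smaller families had single regions or pairs. CDF3 (AT3G47500), a DOF factor that delays flowering, had 5.27 in replicate 1 and 3.18 in replicate 2, and DOF4.5 had 1.91 and 1.94. GATA9 had 3.82 and 2.69, TCP2 had 2.58 and 2.68, BNQ2, an atypical bHLH gene, had 2.43 and 2.38, and bZIP1 had 2.45 and 1.98. In SOB3's own AHL family 2 of 28 genes had one, AHL26 (AT4G12050, 3.27 and 2.76) and AHL12 (AT1G63480, 2.36 and 2.36). None of the 22 GRF, 12 IDD, 18 SPL and 20 HSF genes had one. The symbol GRF also stands for general regulatory factors, which are no transcription factors, so that list and the transcription factor totals are mixed.

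**Figure D5:**
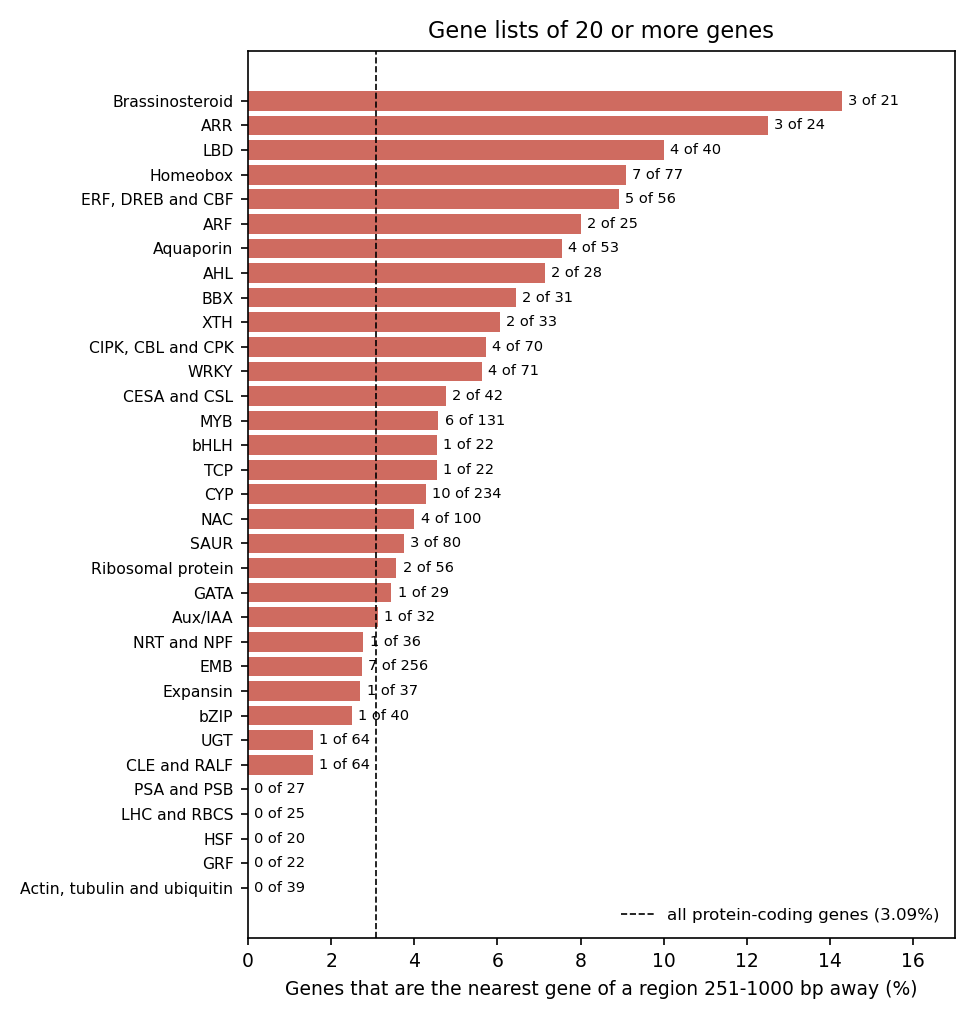
Share of the genes of each list that are the nearest gene of 1 of the 862 regions (x axis, %), for 33 lists of 20 or more genes, with counts beside the bars; the dashed line is the 3.09% of all protein-coding genes. Brassinosteroid genes have the highest share, 3 of 21, and the photosynthesis lists have 0 of 25 and 0 of 27.

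Photosynthesis genes had none of the 862 regions. Of 25 light-harvesting and Rubisco small subunit genes, 0 had a region there, whereas 11 held one (2.00% of all genes did) and 6 had one within 250 bp (2.68% of all genes did). None had one beyond 1000 bp (2.26% of all genes did). Of 27 photosystem subunit genes 0 had one there, 8 held one and 6 had one within 250 bp. At the 3.09% of all genes, a list of this size has fewer than 1 gene, so a count of 0 is no result by itself. These genes had a mean of 294 bp of window each, against 431 bp for all genes.

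Genes of the cell wall had 5 of 112, at 82.3 per Mb. EXPA8 (AT2G40610), a wall-loosening expansin, had 2.80 in replicate 1 and 2.83 in replicate 2. XTH24 (2.68 and 2.71) and XTH2 (2.25 and 2.37) encode xyloglucan-modifying enzymes. The cellulose synthase-like genes CSLB03 (2.34 and 2.44) and CSLC6 (2.21 and 2.55) also had a region. In these 5 genes replicate 2 was slightly higher than replicate 1, against the direction in most of the 862 regions. The replicate 2 summit was shifted by -518 bp at EXPA8, -257 bp at XTH24 and 396 bp at CSLB03, so there the 2 folds belong to different spots.

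Of 234 cytochrome P450 genes 10 had a region, at 71.4 per Mb. CYP71B35 (AT3G26310) had 4.92 in replicate 1 and 3.86 in replicate 2, CYP71B21 had 3.11 and 3.68, and CYP82C3 had 4.09 and 3.02. CYP71B genes lie in tandem. Whether reads were shared among similar copies was not tested, so these values are uncertain. Of 64 UGT genes only UGT74E2 (AT1G05680), which glycosylates indole-3-butyric acid, had one, at 3.96 and 3.33.

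Of 89 transport genes 5 had a region (5.62%, at 77.8 per Mb), and of 134 signalling genes 5 did (3.73%, at 57.3 per Mb). By synonym the aquaporin list took in BRX (2.40 in replicate 1 and 2.83 in replicate 2), which is a regulator of root growth and no aquaporin. PIP1C had 2.98 and 2.35, NIP3;1 had 2.31 and 2.38, and the peptide transporter gene PTR4 had 2.11 and 2.16. The CBL-interacting kinase genes CIPK9 (3.25 and 2.39), SR1 (CIPK14, 3.33 and 2.30) and CIPK19 (2.005 and 2.11) had a region. So did RALFL26 (3.35 and 1.996), of the RALF peptides. The replicate 2 summit was shifted by -471 bp at PIP1C and 266 bp at CIPK9, so there the 2 folds belong to different spots.

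Housekeeping lists held 9 of 351 genes, which at 2.56% was below the 3.09% of all genes, but at 85.5 per Mb of their window above the 72.8 of all genes. In the ribosomal protein list the matches were AT1G77750, listed as RPS13 (4.94 in replicate 1 and 2.92 in replicate 2), and RPS2 (AT4G26090, 4.77 and 2.92), which is a disease resistance gene despite its symbol. The 9 genes and the 85.5 per Mb include RPS2, and the density without it was not computed. Of 256 genes essential in the embryo 7 had a region, led by EIF2 BETA, emb2746 (AT5G63420, 4.29 and 2.93) and GLA1 (AT5G41480, 2.85 and 2.88). None of 39 actin, tubulin and ubiquitin genes had one.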

How the data were processed

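Per the submitters' processing notes, reads were handled with bcl2fastq, Bowtie 0.12.9 and MACS2 on TAIR10; not given in the sources used here are the MACS2 version, control and threshold. The authors deposited 1 peak list per ChIP replicate (9980 and 4788 peaks) with a fold enrichment (a linear ratio), −log10 p and −log10 q, and a score equal to the whole part of 10 times −log10 q. Fold and −log10 values are the authors' own. Start, end and summit offset, 0-based in the deposited files, were turned into 1-based positions.

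Regions, distances, gaps and list counts were computed with Python 3.11.15, pandas 2.3.3 and scipy 1.17.1, and the placing was tested on simulated data. Gene spans came from RefSeq assembly TAIR10.1, whose nuclear coordinates are taken to equal TAIR10; distances rest on that. Arms were counted up to the last annotated gene. A density is summits per Mb of arm sequence in the same distance class. Named genes are those of the 12 regions with the highest lower fold, up to 3 per list by lower fold, the 3 genes with 2 regions and the highest lower fold, and regions at the limits; the text says where others were picked after their values were seen, which also holds for those with the lowest folds and those in or near non-coding genes. Members and lists were chosen with earlier results of these data known. The result of 1 transcription factor list is not reported here. Planned A+T content, motif, sequence and strand results needed a genome and were not run. There is 1 ChIP group, so no test between groups was possible, and shares have Wilson intervals. Alternatives covered the overlap, the q threshold, the summit, the gene set, the distance limits and each replicate alone.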

Additional observations from a re-analysis of the deposited data

How the results depend on the processing

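Of 38 alternative values, 27 stayed within 1.5 times the count, within the Wilson interval of the share, or within the SD of the 2 replicate medians (0.257). With a reciprocal overlap of 50%, replicate 2 summits or all annotated genes, the 862 regions became 664, 866 and 894, and 659, 717 and 777 of the 849 nearest genes were kept. At −log10 q of at least 5 there were 521 regions and 516 nearest genes, and at 10 there were 130 and 129, with medians of 3.59 and 3.26 in replicates 1 and 2. Limits widened by 100 bp at either end took in 41.0% of arm regions. Without one replicate the count lay between 1093 (replicate 2 peaks alone) and 2174 (replicate 1 peaks alone), nearest genes between 1061 and 2065, and the share between 25.9% and 31.2%. The median fold was 2.54 in replicate 1 alone and 2.43 in replicate 2 alone. The counts at stricter q fell because fewer peaks entered; the other causes were not tested. Alternatives for A+T content and for the upstream share were not run, since no genome or strand was used. No paired analysis was possible because the design has 1 ChIP group. Depth is unknown, so what it limits was not measured.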

Other observations

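The genes in these paragraphs were picked after their values were seen. Besides TKL, its relative TIC (AT3G22380), a regulator of the circadian clock, had a region of the same distance class at chr3:7919251-7920249. Its fold was 4.30 in replicate 1, while replicate 2 gave 2.24. In the gap on the other side of TIC, a region nearest to AOX1A, the mitochondrial alternative oxidase gene, lay 680 bp from that gene, with 4.98 in replicate 1 and 3.65 in replicate 2. Its replicate 2 summit was shifted by 1335 bp, away from AOX1A and out of the window, so the 2 folds belong to different spots. PYK10 (AT3G09260), a beta-glucosidase gene of roots, had 4.06 and 3.75 at 371 bp. The calcium pump gene ACA7 (AT2G22950) had 4.29 and 3.55 at 427 bp.

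Several strong regions differed widely between replicates. The region near AT5G15745 had 7.04 in replicate 1 and 3.57 in replicate 2. A region in a lncRNA gene 717 bp from AT2G46520 had 7.11 and 2.64. The region near AT1G70944 had 3.64 in replicate 1 and 4.52 in replicate 2, and the region in pseudogene AT3G17050 had 3.46 and 4.33, so replicate 2 was the higher one at both.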
